A study of Mus musculus with 21 samples.

Results

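Glycolysis turns glucose into pyruvate in the cytosol, and the hypoxia-inducible factors (HIFs) switch on many of its genes when oxygen is low. The genes described here are 34 mouse genes of this program, chosen by symbol: glucose transporters, glycolytic enzymes, the enzymes and transporters that handle pyruvate and lactate, Hif1a, and target genes of HIF. All 34 were found among the 54122 genes with a transcript in the deposited files. They were followed in polymorphonuclear neutrophils (PMNs) and in renal tubular epithelial cells (TECs) of mice 24 h after kidney ischemia-reperfusion injury (IRI) or a sham operation.

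All animals were wildtype, and by the study's methods they were male C57BL/6 mice aged 8 to 12 weeks. In the IRI groups both renal pedicles were clamped for 32 min, and in the sham groups they were not. Remote ischemic preconditioning (RIPC) was 3 cycles of 5 min of hind-limb cuff inflation to 200 mmHg with breaks of 5 min, finished 15 min before surgery, and control animals wore a cuff inflated to 20 mmHg. By the labels, PMNs came from blood and TECs from kidney tissue, in the methods with beads against prominin-1. This gave 8 groups and 21 RNA-Seq libraries. Of these, 10 were PMN libraries: sham surgery with control cuff 2, sham surgery with RIPC 3, IRI with control cuff 2 and IRI with RIPC 3. The 11 TEC libraries were 3, 3, 2 and 3 in the same order. The paper describes 3 biological replicate libraries per group, where some groups here hold 2. The labels tie no library to an animal, so p-values measure the spread between these libraries.

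Each library held between 20881334 and 51624602 estimated reads, with a median of 29259846. The 34 genes together took 0.324% to 1.17% of the reads in PMNs and 0.49% to 1.21% in TECs. Levels are given as CPM, reads scaled to a common normalized library size, and levels of different genes are compared only as TPM, which divides by transcript length. Spread between replicates was large, with a common biological coefficient of variation of 1.67 over all libraries, as edgeR estimated it.

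The labelled cell types were checked with marker genes. A marker counted as detected if it was above 0 in 1 or more libraries of the cell type. All 12 neutrophil markers were detected in PMNs, and their summed level was 7360 to 43800 CPM in PMNs against 1.82 to 121 CPM in TECs. Camp and Ltf were at 0 CPM in some PMN sham libraries, among them replicate 2 of the control and of the RIPC group. All 11 proximal tubule markers were detected in TECs, at 9100 to 17200 CPM after sham surgery and 2790 to 8280 CPM after IRI. However, PMN libraries also held them, at 1230 to 11300 CPM after sham surgery and 558 to 928 CPM after IRI. Most of the sum in PMNs after sham surgery was the marker Kap, at 897 to 7770 CPM, against 1290 to 5420 CPM in TECs after sham surgery. The marker Slc34a1 was at 98.7 to 1240 CPM against 2320 to 5310 CPM. The highest sum in PMNs belonged to replicate 2 of the PMN sham control group, in which the distal tubule and collecting duct markers summed to 5230 CPM. Macrophage markers (6 of 6 detected) summed to 2660 to 8240 CPM in PMNs after sham surgery, 491 to 1540 CPM after IRI and at most 32.2 CPM in TECs. Among TECs, 2 libraries stood apart from their groups. Havcr1, the tubular injury marker KIM-1, was at 78.9 CPM in replicate 1 of the sham control group, where the other sham libraries had at most 1.02 CPM. It was at 78.4 CPM in replicate 3 of the IRI RIPC group, where the other IRI libraries had 395 to 716 CPM. Thus results are also given without these libraries. In bulk samples, fewer cells of a type and less RNA per cell cannot be told apart.

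Mature neutrophils have few mitochondria in use and make most of their ATP by glycolysis, exporting lactate. The proximal tubule, in contrast, burns fatty acids and lactate in its mitochondria and makes glucose from lactate. HIF is a pair of proteins whose alpha subunit is marked for destruction by prolyl hydroxylases (Egln genes) when oxygen is present. When oxygen falls, HIF accumulates and binds short DNA letters, ACGTG or GCGTG, near genes for glucose uptake, glycolysis, lactate export, vessel growth and mitophagy.

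The letters that HIF binds were looked up in the 250 bases before each RefSeq start site of a gene (build GRCm38.p6), on both strands. Promoters of 32 of the 34 genes were in the table, those other than Slc2a3 and Bnip3l. The letters ACGTG stood at 1 or more start sites of 19 of the 32 genes (59.4%), against 18.5% of all 27025 genes in the table. GCGTG stood at 22 of them (68.8%), against 30.9% of all genes, and either motif at 29 (90.6%), against 41.5%. Genes with several start sites had more sequence to match, and a match is a description of letters, not a binding site. Shown are the 100 bases before the start site for 5 genes that passed the test between IRI and sham surgery. They were picked because this window held a match. Matches on either strand are in capitals (CACGT and CACGC are the same motifs read on the opposite strand). The other genes that passed, Tpi1, Gpi1 and Pfkm, held no match in this window and are not shown. Tpi1 and Gpi1 held none in the 250 bases either. Slc16a3 lies on chr11:120948967-120949066, Slc2a1 on chr4:119108645-119108744, Pkm on chr9:59657127-59657226, Adm on chr7:110627557-110627656 and Eno1 on chr4:150237097-150237196, all on the plus strand. For Pkm and Eno1, whose first start site held no match in this window, the second one is shown.
Slc16a3: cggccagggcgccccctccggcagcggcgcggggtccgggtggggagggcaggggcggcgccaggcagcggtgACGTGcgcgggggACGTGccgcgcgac
Slc2a1: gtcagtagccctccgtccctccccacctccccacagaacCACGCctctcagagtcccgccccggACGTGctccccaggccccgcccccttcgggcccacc
Pkm: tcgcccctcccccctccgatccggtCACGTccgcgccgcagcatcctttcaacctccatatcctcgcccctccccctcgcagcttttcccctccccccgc
Adm: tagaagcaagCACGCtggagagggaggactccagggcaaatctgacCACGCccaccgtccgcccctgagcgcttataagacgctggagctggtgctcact
Eno1: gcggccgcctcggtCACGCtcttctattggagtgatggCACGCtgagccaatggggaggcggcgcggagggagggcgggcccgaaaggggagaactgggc
Slc16a3 held 2 copies of ACGTG within 27 bases of its start site. Slc2a1 held 1 of each motif, Pkm 1 copy of ACGTG, and Adm and Eno1 2 copies of GCGTG each. In the Gencode annotation, the stretches of Slc16a3, Pkm and Eno1 lay inside the gene's span, after its most upstream start.

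**Figure D1:**
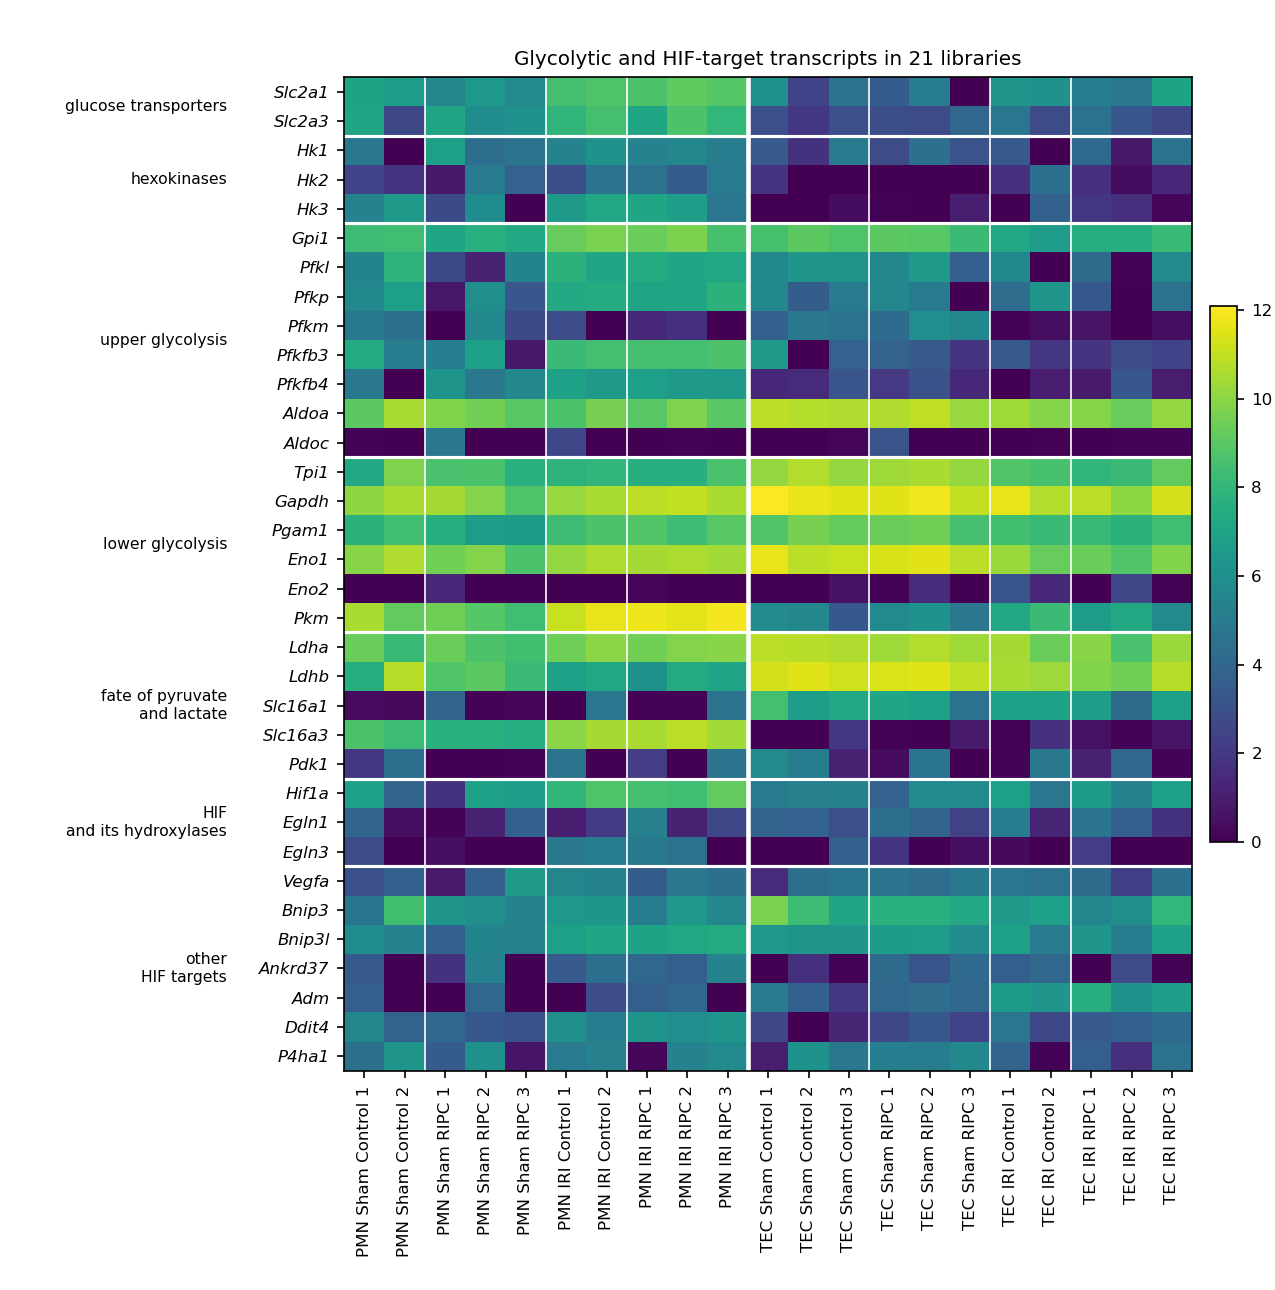
Level of each of the 34 genes (rows, grouped by role) in each of the 21 libraries (columns, grouped by cell type and surgery), as log2 of CPM plus 1. Pkm and Slc16a3 are brighter in each PMN library than in any TEC library, and Slc16a3 is dark across the TEC libraries. Of the lower glycolytic enzymes, Gapdh, Eno1, Tpi1 and Pgam1 are bright in both cell types, and Eno2 is not.

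Levels of the genes were first set against each other within each cell type. Per transcript length, after sham surgery, Gapdh, which oxidizes glyceraldehyde-3-phosphate, ranked first in both (median 1380 TPM in TECs, n = 6, and 611 TPM in PMNs, n = 5). In TECs it was followed by Ldhb, a lactate dehydrogenase subunit (1300 TPM), Eno1, the main enolase (778 TPM), and Aldoa, an aldolase (683 TPM). Ranges of Gapdh and Ldhb overlapped, and those of Ldhb and Eno1 did not. In PMNs the order was Gapdh, Aldoa (330 TPM), Ldhb (320 TPM), Eno1 (304 TPM) and Pkm (154 TPM), and the range of each overlapped that of the next. After IRI, Pkm, the pyruvate kinase of most tissues, had the highest median in PMNs (907 TPM), with a range that overlapped that of Gapdh (794 TPM). Eno1 (477 TPM) and the lactate exporter Slc16a3 (442 TPM) came next, and the ranges of Gapdh and Eno1 did not overlap. In TECs after IRI, Gapdh (850 TPM) and Ldhb (523 TPM) headed the order.

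Compared with TECs, PMNs after sham surgery had significantly higher levels of 5 of the 34 genes and lower levels of 6 (edgeR quasi-likelihood test, Benjamini-Hochberg adjusted p under 0.05 over all genes tested). Over all 31769 genes tested, 1.49% were higher and 1.13% lower. At an unadjusted p under 0.05 there were 19 of the 34, and 17.5% of all genes tested. The Wald test of DESeq2 called 6 genes higher and 10 lower of 32 tested, against 21.8% of all genes in either direction. The 5 higher genes were Slc2a3, Hk2, Hk3, Pkm and Slc16a3, and the 6 lower genes were Tpi1, Gapdh, Pgam1, Eno1, Ldha and Ldhb.

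The largest difference was in Slc16a3, which encodes MCT4, the low-affinity transporter that exports lactate. Its level in PMNs was 413 and 311 CPM in the sham control group and 212, 202 and 181 CPM in the sham RIPC group. In the 6 TEC sham libraries it ranged from 0 to 2.93 CPM (median 0.019 CPM), so that the groups did not overlap. The log2 difference was 8.97 ± 1.44 (SE), with an adjusted p of 0.000978 in edgeR. Slc16a1, which encodes MCT1 and carries lactate in either direction, went the other way in level, with 0.0456 to 14.3 CPM in PMNs and 21.7 to 350 CPM (median 128 CPM) in TECs. These groups did not overlap either, but the difference did not pass the test (-6.98 ± 2.0, edgeR adjusted p = 0.0688).

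Pkm was at 1490 and 581 CPM in the PMN sham control group and 699, 474 and 336 CPM in the sham RIPC group. In TECs it was at 9.21 to 71.6 CPM (median 49.2 CPM), below every PMN library. Its log2 difference was 4.06 ± 0.49 (edgeR adjusted p = 5.34e-05). The tubule's other pyruvate kinase, Pklr, is taken up with the other pathway genes.

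Among genes of glucose entry, Slc2a3 encodes GLUT3, a high-affinity glucose transporter. Its levels in the PMN sham libraries were 138 and 5.08 CPM in the control group and 138, 57.7 and 67.7 CPM in the RIPC group, against 2.84 to 14.8 CPM (median 6.63 CPM) in TECs. Only replicate 2 of the control group, which had the most tubular markers, fell within the TEC range. The log2 difference was 3.49 ± 0.73 (edgeR adjusted p = 0.00961), and without replicate 1 of that group it was 1.52 with an adjusted p of 0.338 in edgeR. Hexokinases trap glucose as glucose-6-phosphate. Hk3, the isoform of blood cells, was at 42 and 90 CPM in the control group and 5.6, 57.1 and 0 CPM in the RIPC group, against at most 1.02 CPM in TECs (7.60 ± 1.85, edgeR adjusted p = 0.028). Hk2, the inducible isoform, was at 0.792 to 30.2 CPM in PMNs and was above 0 in 1 TEC sham library, replicate 1 of the control group with 2.56 CPM (6.76 ± 1.7, edgeR adjusted p = 0.0385). The call of Hk2 was lost without replicate 2 of the PMN sham RIPC group or without any 1 TEC sham library but replicate 1 of the control group (edgeR adjusted p = 0.059 to 0.107). That of Hk3 was lost without that PMN library or without replicate 1 or 2 of either TEC sham group (edgeR adjusted p = 0.0521 to 0.11).

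The 6 genes with lower levels in PMNs were all enzymes of the later steps of glycolysis or of lactate metabolism. For each, every PMN library was below every TEC library, but how many of all genes separate the cell types in this way was not counted. Gapdh was at 1060 ± 422 CPM in PMNs (SD, n = 5) and 3190 ± 807 CPM in TECs (SD, n = 6), a log2 difference of -1.55 ± 0.35 (edgeR adjusted p = 0.0158). Ldha, whose subunit favors lactate formation, was at 474 ± 173 CPM and 1580 ± 226 CPM (-1.74 ± 0.38). Ldhb, whose subunit favors lactate use, was at 642 ± 631 CPM and 2550 ± 358 CPM (-1.99 ± 0.45). Its highest PMN value, 1750 CPM, was again in replicate 2 of the sham control group. The share of the tubular markers in the level of any of these genes in PMNs was not tested. Differences of Tpi1 (-1.67), Pgam1 (-1.68) and Eno1 (-1.40) were of like size, and for Tpi1 the call was lost in 9 of 11 fits without 1 library, all but those without replicate 2 of either PMN group (edgeR adjusted p = 0.0573 to 0.178). Without replicate 1 of the PMN sham control group, the calls of Gapdh (edgeR adjusted p = 0.0591), Pgam1 and Eno1 were lost, and without replicate 2, those of Pgam1 and Ldha (0.0821). The call of Eno1 was also lost without replicate 3 of the PMN sham RIPC group or without 1 of 3 TEC libraries (replicate 1 of either sham group and replicate 2 of the RIPC group). Its adjusted p was then 0.0501 to 0.114 in edgeR, and that of Pgam1 0.0663 to 0.126. Gapdh, Pgam1 and Eno1 share 25.1%, 36.2% and 26% of their 50-base stretches with other genes, mostly processed pseudogenes, so that reads could be divided among copies. Of other genes named for a change or a difference, Pkm shared 25.8%, Ldhb 21%, Bnip3l 20.8%, Gpi1 15.8% and Ldha 9.26%. Reads of genes that each share at least 1% of such a gene's 50-base stretches were then added. The counts of genes past the threshold in this comparison stayed at 5 and 6. Reads of genes that each share less were not added.

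None of the 8 genes of upper glycolysis passed in this comparison, nor did any of the 10 genes of HIF, its hydroxylases and its other targets. Hif1a was at 120 and 13.5 CPM in the PMN sham control group and 2.43, 121 and 108 CPM in the sham RIPC group, against 13.1 to 54 CPM (median 39 CPM) in TECs (0.92 ± 0.73, edgeR adjusted p = 0.552).

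After IRI, 6 of the 34 genes were significantly higher in PMNs than in TECs and 1 was lower, against 1.49% and 1.17% of all 31769 genes. At an unadjusted p under 0.05 there were 14, against 14.4% of all genes, and the Wald test of DESeq2 called 9 higher and 1 lower of 32, against 17.1% of all genes in either direction. Pkm (4.35 ± 0.56), Slc16a3 (11.01 ± 1.80) and Slc2a3 (4.38 ± 0.85) were higher, as they were after sham surgery. Gpi1, which converts glucose-6-phosphate to fructose-6-phosphate, was higher by 1.99 ± 0.39 (edgeR adjusted p = 0.00583). Pfkfb3 and Pfkfb4 make fructose-2,6-bisphosphate, the strongest activator of phosphofructokinase. Pfkfb3 was at 297 to 423 CPM in PMNs and 2.58 to 9.61 CPM in TECs (6.09 ± 1.49, edgeR adjusted p = 0.0288), and Pfkfb4 was at 87.9 to 120 CPM and 0 to 8.84 CPM (6.30 ± 1.55, edgeR adjusted p = 0.0294). Ldhb was lower by 3.29 on the log2 scale (SE 0.50). Gapdh, Ldha, Pgam1, Tpi1 and Eno1, of which all 5 were lower in PMNs after sham surgery, had differences between -0.68 and 0.82, and none passed the test. Leaving out replicate 1 of the TEC IRI control group ended the calls of Gpi1, Pfkfb3 and Pfkfb4 (edgeR adjusted p up to 0.151), and leaving out replicate 2 ended those of Slc2a3 (0.0593), Gpi1 and Pfkfb3. The call of Gpi1 was also lost without replicate 2 of the PMN IRI control group. With the control groups alone, 1 of the 34 genes passed after sham surgery, Pkm, and 0 after IRI. Of all 31769 genes, 161 were then higher and 19 lower after sham surgery, and 59 and 12 after IRI.

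**Figure D2:**
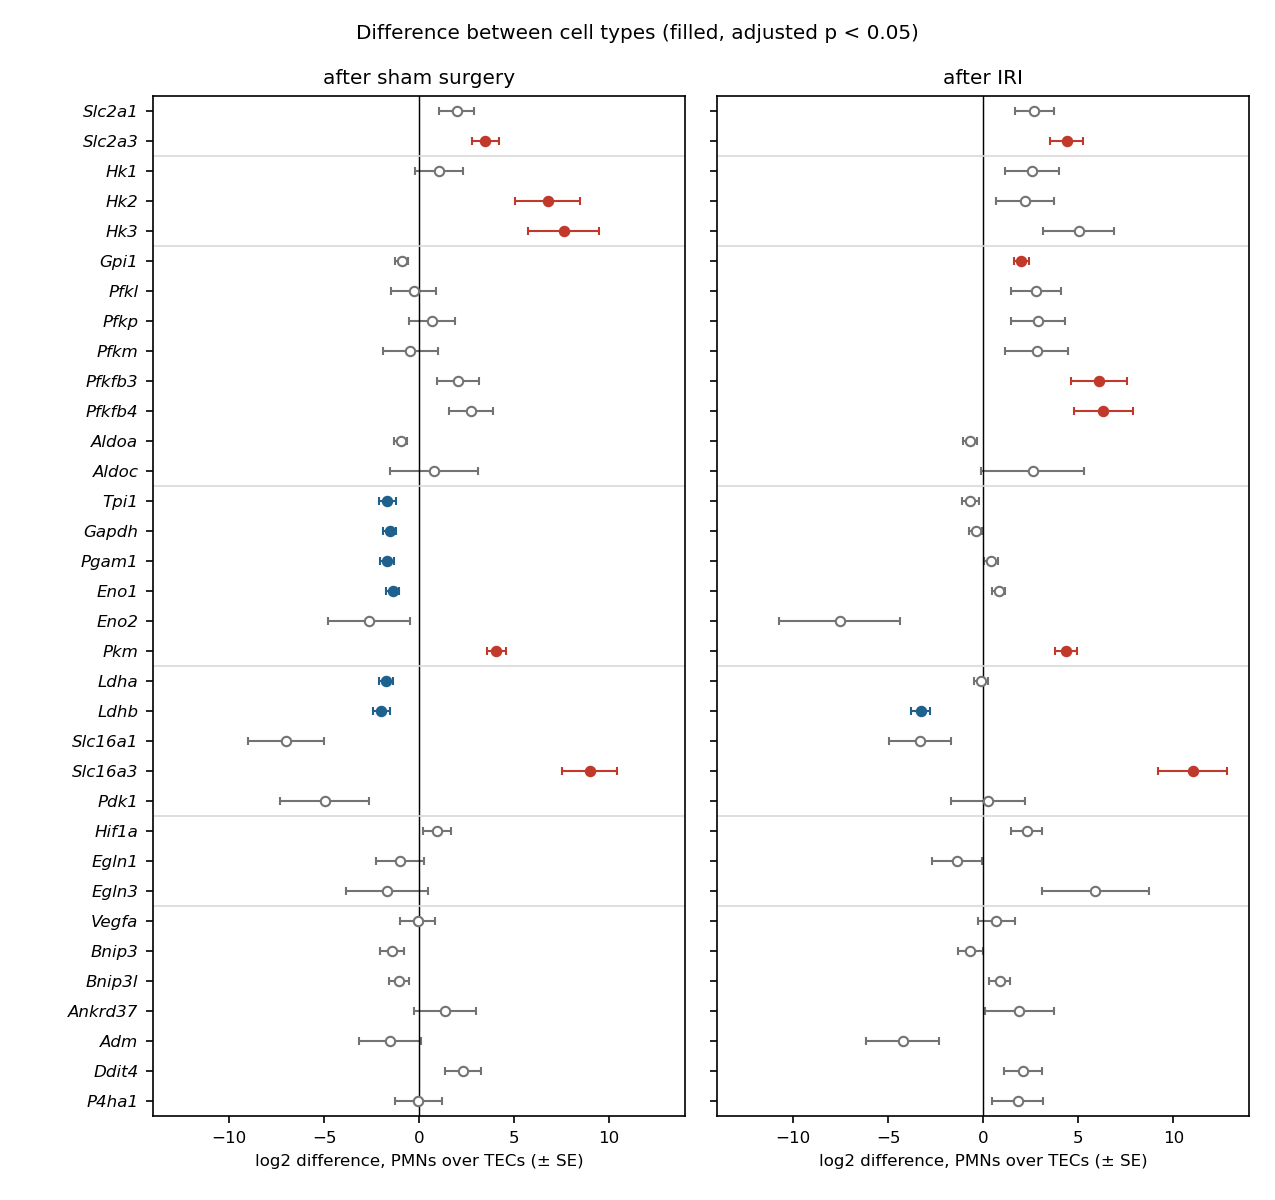
Log2 difference of PMNs minus TECs for each gene after sham surgery and after IRI, with bars of 1 SE and filled points for genes past the threshold. Slc16a3 and Pkm lie to the right of 0 in both comparisons, and Gapdh, Ldha, Pgam1, Tpi1 and Eno1 lie left of 0 after sham surgery and close to it after IRI.

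In PMNs, IRI led to significantly higher levels of 3 of the 33 genes tested and to lower levels of 0 (Eno2 was under the filter on low counts). Over all 25002 genes tested, 0.364% were higher and 0.052% lower. The 3 genes were Slc16a3, Slc2a1 and Pkm, which stand for lactate export, glucose uptake and the last step of glycolysis. At an unadjusted p under 0.05 there were 12 genes, of which 11 were higher after IRI and Ldhb was lower, against 11.8% of all genes tested in either direction. The Wald test of DESeq2 called 6 higher and 1 lower of 29, against 11.5% of all genes. Every IRI library was above every sham library for 11 genes, against 3.47% of all genes tested, and every IRI library was below for 1 gene, against 2.03%. The median log2 fold change was 1.31 over the 33 genes and -0.012 over all genes tested.

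Slc16a3 was at 1010 and 1410 CPM in the IRI control group and 1480, 1830 and 1350 CPM in the IRI RIPC group, where no sham library exceeded 413 CPM. Its log2 fold change was 2.34 ± 0.21 (edgeR adjusted p = 0.00672), and it passed without any 1 library. Slc2a1 encodes GLUT1, the basal glucose transporter. It was at 367 and 428 CPM in the IRI control group and 421, 558 and 484 CPM in the IRI RIPC group, against 126 and 104 CPM in the sham control group and 45, 87.4 and 50.7 CPM in the sham RIPC group. The log2 fold change was 2.38 ± 0.30 (edgeR adjusted p = 0.0215). Without replicate 2 of the sham control group, the library with the most tubular markers, it was 2.37 with an adjusted p of 0.0643 in edgeR. The call was also lost when any 1 of the 5 IRI libraries was left out, where the adjusted p was at most 0.0869. Pkm was at 2160 and 3340 CPM in the IRI control group and 3480, 3130 and 3820 CPM in the IRI RIPC group, and all 5 exceeded the highest sham library (1490 CPM). Its log2 fold change was 2.09 ± 0.32 (edgeR adjusted p = 0.0374), and 1.88 with an adjusted p of 0.0412 without replicate 2 of the sham control group. That call was lost without replicate 2 of the sham RIPC or IRI control group or any 1 IRI RIPC library, with adjusted p-values up to 0.105. With any 1 IRI RIPC library left out, 1 of these genes passed, and over all genes tested 12 to 18 were higher and 1 to 6 lower. With the control groups alone, 2 libraries against 2, 0 of these genes passed, and 0 of all 25002 genes tested did.

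Of the other genes of glucose entry and upper glycolysis, all IRI libraries lay above all sham libraries for Slc2a3, Gpi1, Pfkp, Pfkfb3 and Pfkfb4, and none of them passed the test. Gpi1 was at 617 and 805 CPM in the IRI control group and 651, 829 and 375 CPM in the IRI RIPC group, against 139 to 338 CPM after sham surgery (1.5 ± 0.28, edgeR adjusted p = 0.0845). Pfkfb3 was at 360 ± 45.2 CPM after IRI and 69.6 ± 67.1 CPM after sham surgery (SD, n = 5 each). Its sham libraries spread from 0.778 to 165 CPM, and its log2 fold change of 2.31 ± 0.98 had an adjusted p of 0.413 in edgeR. Pfkm, the muscle phosphofructokinase, was at 0 to 49.5 CPM after sham surgery and at most 5.81 CPM after IRI. The 3 hexokinases did not pass and overlapped between the groups.

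Among the genes of HIF, Hif1a was at 250 and 434 CPM in the IRI control group and 364, 330 and 579 CPM in the IRI RIPC group, above every sham library (2.39 ± 0.94, edgeR adjusted p = 0.409). Bnip3l, a mitophagy receptor, was at 118 to 169 CPM after IRI and 12.6 to 57.8 CPM after sham surgery (1.80 ± 0.45, edgeR adjusted p = 0.174). Egln3, the hydroxylase most strongly induced by HIF, was at 28 and 34.1 CPM in the IRI control group and 29, 22.1 and 0 CPM in the IRI RIPC group, and 4 of 5 sham libraries had at most 0.396 CPM. Ddit4, an inhibitor of mTORC1, was at 62.3 ± 16.4 CPM after IRI and 18.3 ± 15.9 CPM after sham surgery (SD, n = 5 each). Levels of Vegfa, a growth factor of vessels, Adm, a vasodilator peptide, and P4ha1, a collagen prolyl hydroxylase, overlapped, with log2 fold changes of 0.70, -0.07 and -0.17. So did those of Egln1, a hydroxylase that marks HIF (-0.06 ± 1.51), and of the HIF target Ankrd37 (1.15 ± 1.79).

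Ldhb was the gene with lower levels after IRI in every library. It was at 115 and 150 CPM in the IRI control group and 72.5, 167 and 131 CPM in the IRI RIPC group, against 193 and 1750 CPM in the sham control group and 444, 523 and 305 CPM in the sham RIPC group. The log2 fold change was -2.34 ± 0.57, with an adjusted p of 0.163 in edgeR. Proximal tubule and macrophage markers were also lower after IRI in every library (558 to 928 CPM against 1230 to 11300 CPM, and 491 to 1540 CPM against 2660 to 8240 CPM), and the neutrophil markers were at 22100 to 43800 CPM against 7360 to 30200 CPM. Their part in the results in PMNs was not tested.

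**Figure D3:**
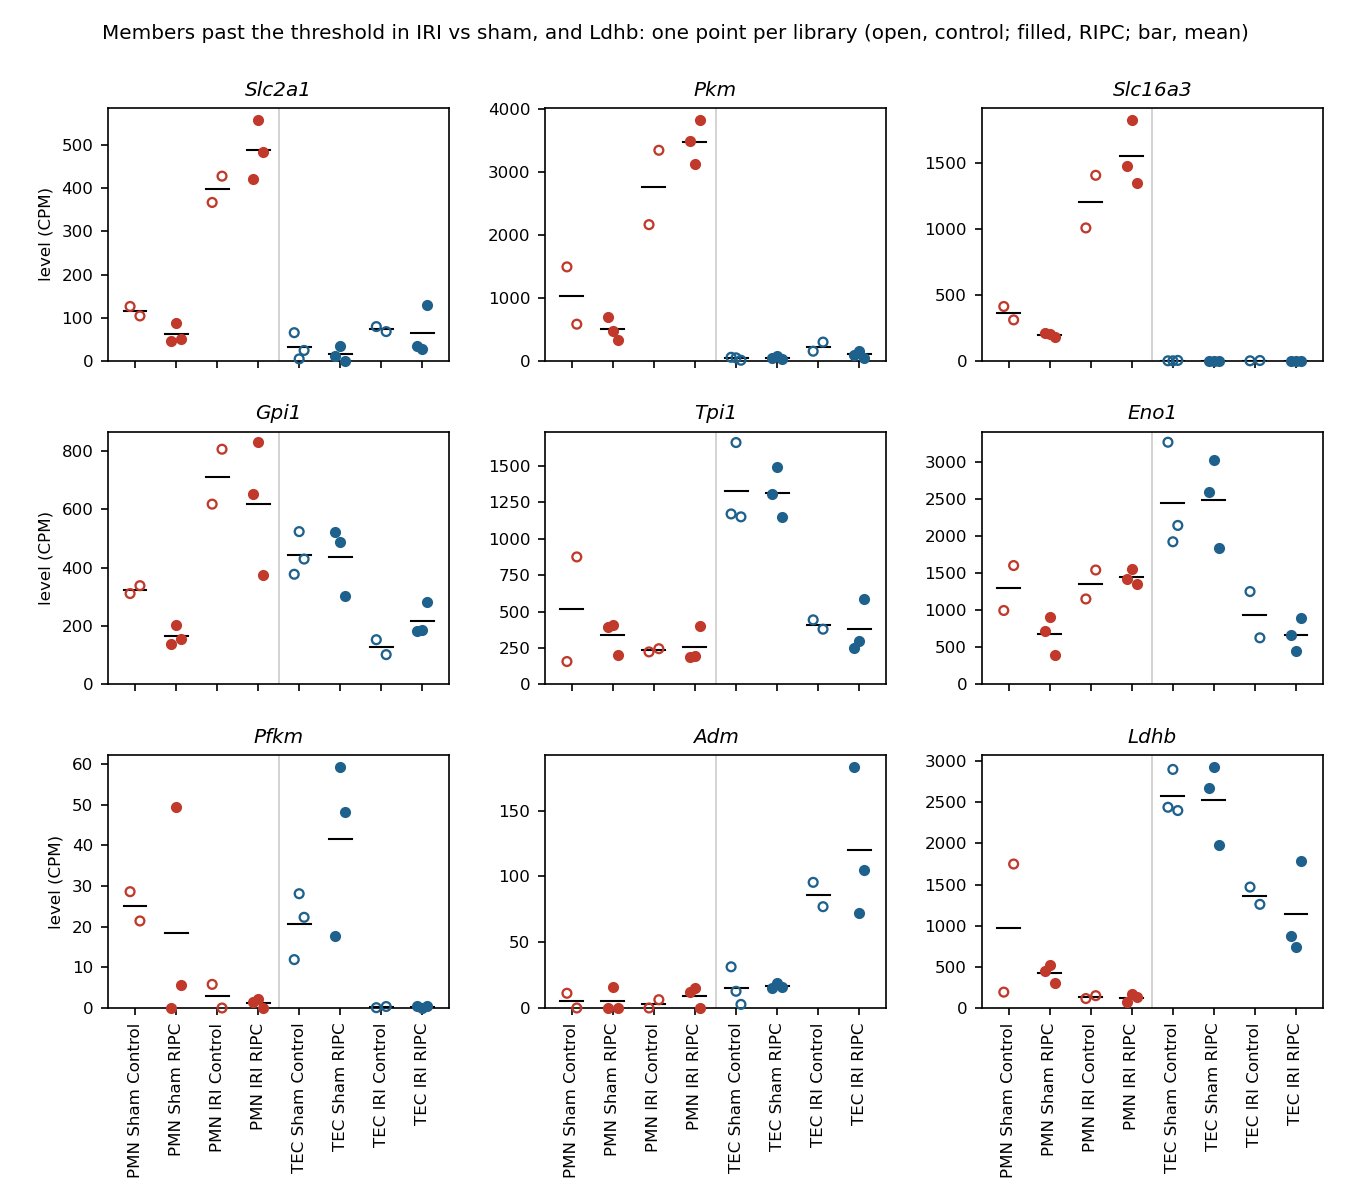
Level in CPM of the genes that passed the test between IRI and sham surgery, and of Ldhb, with 1 point per library (open for control, filled for RIPC) and a bar at the mean of each of the 8 groups. Slc16a3, Slc2a1 and Pkm are higher in all 5 PMN libraries after IRI than in all 5 after sham surgery, Adm is higher in all 5 TEC libraries after IRI, and Tpi1, Eno1, Gpi1 and Pfkm are lower there.

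In TECs, IRI led to a higher level of 1 of 33 genes tested and to lower levels of 4 (Aldoc was under the filter on low counts). Over all 25917 genes tested, 0.255% were higher and 1.15% lower. Adm was the higher gene, and Tpi1, Pfkm, Eno1 and Gpi1, enzymes from the upper and lower parts of glycolysis, were the lower ones. At an unadjusted p under 0.05 there were 13 genes, 3 higher (Adm, Pkm and Hk2) and 10 lower, against 15% of all genes tested in either direction. The Wald test of DESeq2 called 2 higher and 6 lower of 28, against 11.6% of all genes. Every IRI library lay above every sham library for 1 gene, against 1.59% of all genes tested, and below for 6 genes, against 3.01%. The median log2 fold change was -0.645 over the 33 genes and 0.151 over all genes tested.

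Tpi1, which interconverts the triose phosphates, was at 443 and 379 CPM in the IRI control group and 247, 301 and 588 CPM in the IRI RIPC group, against 1150 to 1660 CPM (median 1240 CPM) after sham surgery. Its log2 fold change was -1.78 ± 0.31 (edgeR adjusted p = 0.014). Eno1 was at 1250 and 627 CPM in the IRI control group and 668, 446 and 898 CPM in the IRI RIPC group, against 1840 to 3260 CPM (median 2370 CPM) after sham surgery (-1.67 ± 0.31, edgeR adjusted p = 0.0172). Both enzymes were thus lower in all 5 IRI libraries than in all 6 sham libraries.

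Pfkm was close to the limit of detection after IRI. It was at 0.0797 and 0.366 CPM in the IRI control group and 0.577, 0 and 0.369 CPM in the IRI RIPC group, at most 15 reads in a library, against 11.9 to 59.2 CPM (median 25.2 CPM) after sham surgery. The fitted log2 fold change was -6.82 ± 1.23 (edgeR adjusted p = 0.0166). It was -5.01 when the reads of the antisense gene Gm26513, which shares sequence with Pfkm, were added. Gpi1 was at 153 and 102 CPM in the IRI control group and 184, 185 and 283 CPM in the IRI RIPC group, against 301 to 523 CPM (median 459 CPM) after sham surgery. Its log2 fold change of -1.44 ± 0.33 (edgeR adjusted p = 0.0459) was close to the threshold. The call was lost in 10 of 11 fits that left out 1 library, all but the one without replicate 3 of the IRI RIPC group (edgeR adjusted p = 0.0509 to 0.248). Without replicate 2 of the sham control group, the adjusted p of Pfkm was 0.0564.

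Adm was at 95.5 and 77 CPM in the IRI control group and 183, 72.1 and 105 CPM in the IRI RIPC group, against 2.74 to 31.3 CPM (median 15.7 CPM) after sham surgery. The log2 fold change was 2.62 ± 0.58 (edgeR adjusted p = 0.041). The highest sham value belonged to replicate 1 of the control group, the library with Havcr1 at 78.9 CPM. Without that library and replicate 3 of the IRI RIPC group, an alternative added after the data had been seen, the log2 fold change of Adm was 3.28 (edgeR adjusted p = 0.00848), that of Tpi1 -1.95, that of Eno1 -1.59, that of Pfkm -6.91 and that of Gpi1 -1.51, and all 5 passed. Without replicate 2 of the sham RIPC group 0 of the 33 genes passed, and of all 25188 genes tested 18 were higher and 92 lower. The adjusted p-values in edgeR were then 0.0521 for Tpi1, 0.0654 for Eno1, 0.0654 for Pfkm, 0.11 for Adm and 0.133 for Gpi1. Without replicate 1 of that group the adjusted p of Eno1 was 0.0569, and without replicate 2 or 3 of the sham control group, replicate 1 or 3 of the sham RIPC group or replicate 1 of the IRI RIPC group that of Adm was 0.0578 to 0.127. With the control groups alone 0 genes passed, and without replicate 3 of the IRI RIPC group 7 did.

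Of the other lower glycolytic and lactate genes in TECs, Ldhb (1230 ± 428 CPM after IRI, n = 5, and 2550 ± 358 CPM after sham surgery, n = 6, SD) and Pgam1 (296 ± 49.7 CPM and 594 ± 159 CPM) were lower in every IRI library, and neither passed (edgeR adjusted p = 0.0853 and 0.147). Pkm was at 152 and 297 CPM in the IRI control group and 99.3, 156 and 51.2 CPM in the IRI RIPC group, against 9.21 to 71.6 CPM after sham surgery. The lowest IRI value was that of replicate 3 of the IRI RIPC group, and the groups overlapped (1.78 ± 0.53, edgeR adjusted p = 0.132). Without it and replicate 1 of the sham control group, the log2 fold change of Pkm was 2.28 with an adjusted p of 0.0401 in edgeR. Hif1a (79.7 ± 43.2 CPM and 37.8 ± 15.1 CPM), Vegfa (18 ± 8.43 CPM and 19.7 ± 9.46 CPM) and Bnip3l (76.5 ± 43.8 CPM and 82.1 ± 16.3 CPM) overlapped between the groups. Bnip3 was at 113 ± 82.4 CPM after IRI and 306 ± 258 CPM after sham surgery, but 47.2% of its 50-base stretches are found in other genes, so that its level is uncertain. Proximal tubule markers were lower after IRI as well (2790 to 8280 CPM against 9100 to 17200 CPM), and their part in the results in TECs was not tested.

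**Figure D4:**
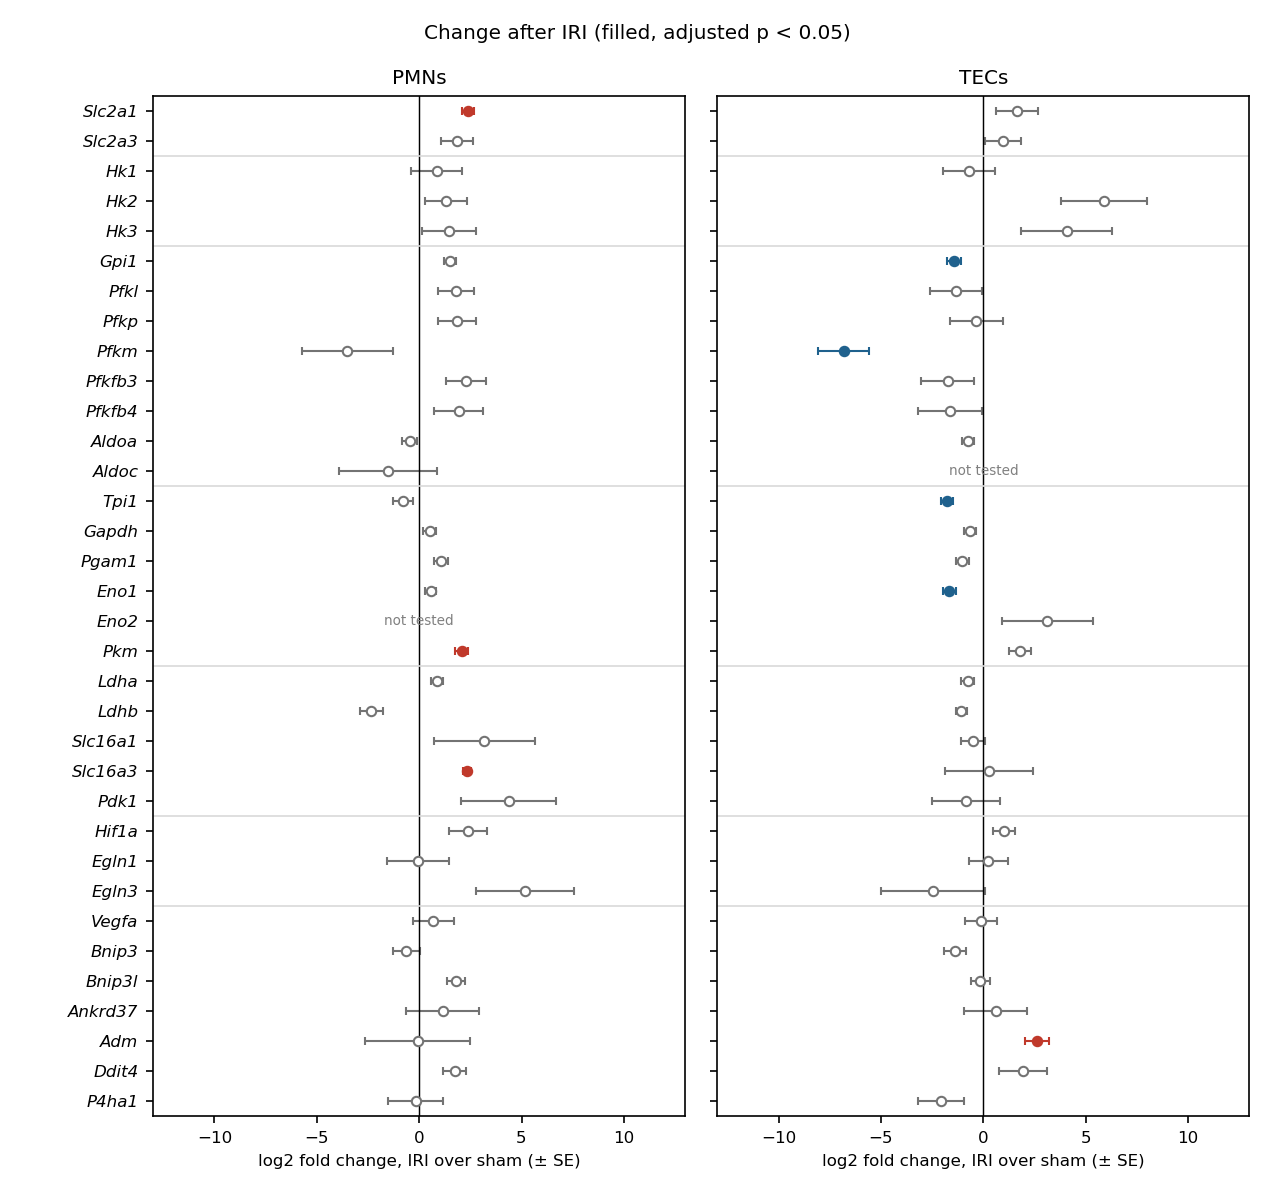
Log2 fold change of IRI against sham surgery for each gene in PMNs and in TECs, with bars of 1 SE and filled points for genes past the threshold. Most genes lie right of 0 in PMNs, where the median is 1.31, and most glycolytic enzymes lie left of 0 in TECs.

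Whether the change after IRI differed between PMNs and TECs was tested as an interaction in all 21 libraries. Of the 34 genes 0 passed, and 0 of 31769 genes did over the whole table, which is 0%. At an unadjusted p under 0.05 there were 11 of the 34 genes and 3102 of all genes (9.76%). The Wald test of DESeq2 called 5 of 32 genes tested (Gpi1, Eno1, Pgam1, Ldha and Bnip3l), against 11.2% of all 21409 genes it tested. The difference was largest against its error for Gpi1 (2.91 ± 0.53, edgeR adjusted p = 0.0645), followed by Eno1 (2.21 ± 0.48, edgeR adjusted p = 0.116) and Pgam1 (2.07 ± 0.54, edgeR adjusted p = 0.204). Without the pair of TEC libraries that stood apart, the difference of Gpi1 was 3.08 with an adjusted p of 0.0355 in edgeR.

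RIPC was compared with control within each cell type and surgery, which were the study's own comparisons. None of the 33 genes tested passed in any of the 4 comparisons. Over all genes tested, 0.004% passed in PMNs after sham surgery, 0% in PMNs after IRI, 0% in TECs after sham surgery and 0.00386% in TECs after IRI. At an unadjusted p under 0.05 there were 8, 0, 1 and 0 of the 33 genes, against 4.6%, 2.72%, 4.53% and 4.35% of all genes. The Wald test of DESeq2 called 0 of the 28 or 29 it tested in each comparison, against 4.77%, 2.36%, 2.08% and 3.56% of all genes it tested.

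The 8 genes in PMNs after sham surgery were Slc2a1, Gpi1, Pfkl, Pgam1, Eno1, Pkm, Slc16a3 and Pdk1. All were lower with RIPC, and each had an adjusted p of 0.705 in edgeR. With the compared groups fitted alone, 1 of 30 genes tested had an unadjusted p under 0.05, against 702 of all 18560. There were 4 of 33 with a replicate block, against 734 of all 25002. Without 1 library of the sham RIPC group there were 2 to 6, against 1061 to 1164 of all genes tested. With DESeq2 size factors the number stayed at 8 of 33, against 1163 of all 25002. With at least 10 counts in every library it was 8 of 21, against 390 of all 6739. It was 5 of 33 with the length offset (1181 of all 25002) and 6 of 34 with no filter on low counts (2484 of all 38823). By the Wald test of DESeq2 it was 2 of 29 (2518 of all 17043). Slc16a3, at 413 and 311 CPM in the control group and 212, 202 and 181 CPM with RIPC, had a log2 fold change of -0.90 ± 0.28. By DESeq2 with apeglm, the study's method as run here, it was called at an s value under 0.01 (0.0076). It was the 1 call among the 33 genes, where that test called 2.11% of all genes. In the other 3 comparisons, in the order above, that test called 0 of the 33 and 0.16%, 0.239% and 0.949% of all genes. Gpi1, at 311 and 338 CPM and then 139, 203 and 157 CPM, had a log2 fold change of -1.0 ± 0.39. The 34 genes took 0.734% and 0.917% of the reads in the control group and 0.324% to 0.597% with RIPC. Neutrophil markers in the same libraries were at 30200 and 11100 CPM without RIPC and 13100, 11100 and 7360 CPM with it, and their part in the values was not tested. In PMNs after IRI, the smallest unadjusted p was 0.106 (Aldoc), and Slc16a3 differed by 0.32 ± 0.28. In TECs after sham surgery, the gene under 0.05 was Hk2, which rested on replicate 1 of the control group alone (2.56 CPM, with 0 CPM in the other 5 libraries). In TECs after IRI, the smallest unadjusted p was 0.123 (Gpi1, 0.79 ± 0.48). Over the 33 genes, the median standard error was 1.26 in both PMN comparisons, 1.18 in TECs after sham surgery (3 libraries against 3) and 1.37 in TECs after IRI, and the errors spanned 0.28 to 4.75.

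Paralogs and isoforms were then compared as shares of their summed TPM, with permutation tests over libraries and adjustment over 45 tests. The share of Slc16a3 in Slc16a1 plus Slc16a3 was 99.6% ± 0.743 in PMNs (SD, n = 10) and 2.73% ± 3.94 in TECs (SD, n = 11), a separation without overlap (two-sided permutation test, p = 4e-05, adjusted p = 0.0018). It was the 1 share of 45 that passed. Ldhb made up 65.8% ± 21.6 of Ldha plus Ldhb in PMNs after sham surgery and 19.5% ± 3.89 after IRI (SD, n = 5 each). That exact two-sided permutation p of 0.00794 is the smallest that 5 against 5 libraries allow, and the adjusted p was 0.0599. In all 11 TEC libraries the share of Ldhb was between 60.1% and 77%. PMN sham libraries spanned 33% to 91.5%, with the highest share in replicate 2 of the control group, the PMN library with the most tubular markers. The part of tubular RNA in the shares of PMNs was not tested. Of the phosphofructokinases, Pfkm made up 33.1% ± 27 in TECs after sham surgery (SD, n = 6) and 0.631% ± 0.664 after IRI (SD, n = 5), with an exact two-sided permutation p of 0.00433, the smallest that 5 against 6 allow (adjusted p = 0.0599). Of the hexokinases, Hk3 made up 50.9% ± 31.8 in PMNs and 11.6% ± 18.3 in TECs, and Hk1 32.2% ± 25.3 and 73.4% ± 34 (SD, n = 10 and 11, permutation test, adjusted p = 0.0599 for each).

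Pkm makes 2 proteins from mutually exclusive exons, PKM1 with exon 9 (chr9:59675029-59675195) and PKM2 with exon 10 (chr9:59675568-59675734, GRCm38). Both exons have 167 bases, of which 103 are the same at the same place (61.7%). They are shown 5′ to 3′ as in the transcripts, with bases that differ in capitals.
M1: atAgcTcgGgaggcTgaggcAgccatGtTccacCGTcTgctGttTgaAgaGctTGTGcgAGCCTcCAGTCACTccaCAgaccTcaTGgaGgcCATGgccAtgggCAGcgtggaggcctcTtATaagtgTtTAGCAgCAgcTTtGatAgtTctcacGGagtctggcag
M2: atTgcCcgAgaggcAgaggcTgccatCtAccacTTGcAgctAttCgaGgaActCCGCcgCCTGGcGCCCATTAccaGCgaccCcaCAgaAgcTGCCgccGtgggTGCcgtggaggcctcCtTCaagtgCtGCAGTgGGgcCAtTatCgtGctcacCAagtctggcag
The M2 transcript held 96.2% ± 3.74 of M1 plus M2 in PMNs (SD, n = 10) and 98.1% ± 4.22 in TECs (SD, n = 11), and the difference was smaller than the spread between libraries (permutation test, adjusted p = 0.519). In PMNs it was 98.4% ± 0.982 after IRI and 94% ± 4.33 after sham surgery (SD, n = 5 each, exact permutation p = 0.0714, adjusted p = 0.247).

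**Figure D5:**
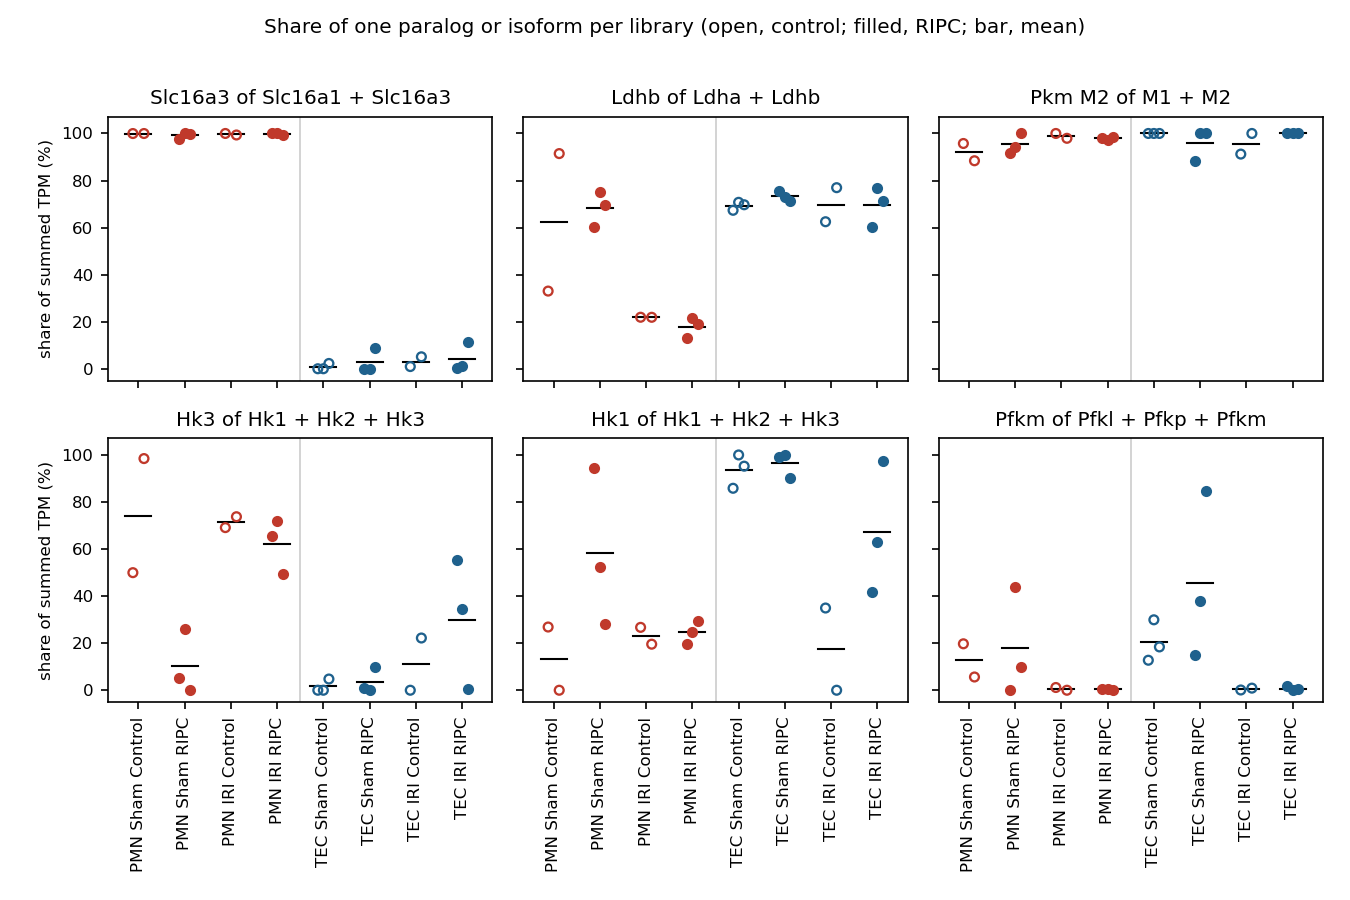
Share in percent of 1 paralog or isoform in the summed TPM of its family, with 1 point per library (open for control, filled for RIPC) and a bar at the mean of each of the 8 groups. Slc16a3 is near 100% in PMNs and near 0% in TECs, the mean share of Ldhb in PMNs is 65.8% in sham and 19.5% in IRI libraries, and the M2 form of Pkm holds at least 88.2% in every library.

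Other genes of the pathway were counted from a list of 64, of which 63 had a symbol in the annotation. Between PMNs and TECs after sham surgery, 58 were tested, 1 was higher and 5 were lower in PMNs. Slc2a6, a lysosomal hexose transporter, was at 5.1 to 111 CPM in PMNs and at 0 in all 6 TEC libraries (edgeR adjusted p = 0.00023). Among the lower genes in PMNs were Ndrg1, a hypoxia-induced gene (224 ± 132 CPM against 4760 ± 1170 CPM), Angptl4, an inhibitor of lipoprotein lipase (0.134 ± 0.103 CPM against 225 ± 207 CPM), Fbp1 (388 ± 222 CPM against 2760 ± 536 CPM) and Pdk4. Fbp1 is fructose-1,6-bisphosphatase, an enzyme of glucose synthesis in the proximal tubule. After IRI, 1 of 58 was higher in PMNs, Slc2a6, and 9 were lower, among them Ndrg1 (-3.87 ± 0.48), Fbp1 (-3.0 ± 0.54) and Mpc2, a subunit of the mitochondrial pyruvate carrier (-3.11 ± 0.57).

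In PMNs, 1 of 53 other genes tested was higher after IRI and 0 were lower. It was Hmox1, heme oxygenase-1, at 754 ± 345 CPM after IRI and 74.8 ± 67.8 CPM after sham surgery (SD, n = 5 each), higher by 3.24 ± 0.51 on the log2 scale (edgeR adjusted p = 0.0393). In TECs, 0 of 55 other genes were higher after IRI and 4 were lower. Among these were Fbp1 (553 ± 367 CPM against 2760 ± 536 CPM, -2.40 ± 0.39), Gpd1, glycerol-3-phosphate dehydrogenase (87.4 ± 51.7 CPM against 580 ± 80.1 CPM, -2.75 ± 0.51), and Pklr, the pyruvate kinase of liver and proximal tubule (0.543 ± 1.17 CPM against 32.5 ± 26.3 CPM, -8.95 ± 1.85). None of the other genes passed in the interaction or between RIPC and control.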

How the data were processed

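RNA-Seq libraries of PMNs and TECs in 8 groups were analysed. According to the labels and methods, oligo-dT primed cDNA was amplified in full length and sequenced as single-end reads of 50 bases. The authors trimmed reads (Trim Galore 0.6.4, per the submitters' processing notes) and quantified them with Salmon 1.0.0. The deposited estimated counts per transcript are not normalized. The deposited TPM values are scaled by the authors to transcript length and library. The deposited effective lengths served for a length offset. Each library came as 2 files whose totals are nearly equal and whose difference is not given in the sources used here, so that their sum may count molecules more than once.

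Transcripts were assigned to genes with Gencode M21 of GRCm38 (the methods name vM23), which matched 139864 of 140748. The rest held 0.139% to 0.255% of the reads of a library. Counts were added over a gene's transcripts and both files and rounded, and TPM values were averaged over the files. Sex-chromosome genes, Pgk1 among them, and mitochondrial genes entered tests only in 1 alternative. Groups were compared by edgeR 4.0.16 in R 4.3.3 (with limma 3.58.1), using its quasi-likelihood test with TMM (factors 0.792 to 1.34), filterByExpr, 1 mean per group and Benjamini-Hochberg adjustment over all genes, on all libraries between cell types and on 4 groups within one. Control and RIPC groups were averaged with equal weight for IRI against sham surgery. SE is the log2 fold change divided by the square root of F. A count of 3 reads corresponds to 0.0748 to 0.156 CPM, which covers counting error only.

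Alternatives were DESeq2 1.42.0 size factors and Wald test, DESeq2 with apeglm 1.24.0, other filters on low counts, each file alone, length offsets, sex-chromosome and mitochondrial genes included, a replicate block, control groups alone, and each library left out. For RIPC against control, the compared groups were also fitted alone. A further alternative added the reads of genes that each share at least 1% of a gene's 50-base stretches. Named are all 34 genes, with per-library values for those past the threshold after IRI or differing most between cell types and for Hif1a, and up to 5 other pathway genes per comparison. Of the other pathway genes past the threshold, some that are counted are not named in their comparison, and 1 is not reported by name here. The genes and lists were chosen with earlier results of these data known. Scripts were tested on simulated data.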

Additional observations from a re-analysis of the deposited data

Results flagged for a closer look

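Gpi1, the glucose-6-phosphate isomerase, had log2 fold changes of opposite sign after IRI in the 2 cell types. In PMNs it was 1.5 ± 0.28 and did not pass (edgeR adjusted p = 0.0845), and in TECs it was -1.44 ± 0.33 (edgeR adjusted p = 0.0459), a call lost in 10 of 11 fits without 1 library. Every PMN library was higher after IRI than every sham library, and every TEC library was lower. The difference between these changes was 2.91 ± 0.53 on the log2 scale. The test of the difference itself, an interaction in edgeR's quasi-likelihood test over all 21 libraries, gave an adjusted p of 0.0645 and did not pass.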

How the results depend on the processing

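Some genes had few reads, such as Slc16a3 in TECs and Pfkm in TECs after IRI, where counting error is large. No result changed direction among genes past the threshold. Calls over all genes tested moved between alternatives as well, given here as higher and lower. PMNs against TECs after sham surgery had 472 and 360 of 31769, and 283 and 219 with a replicate block. After IRI they had 474 and 373, and 929 and 834 of 43622 with no filter on low counts. IRI against sham surgery in TECs had 66 and 297 of 25917, and 762 and 1472 of 19248 by the Wald test of DESeq2. Of the 34 genes, PMNs against TECs after sham surgery had 11 past the threshold, 4 with a replicate block, 1 with the control groups alone, and 6 to 11 without 1 library. The comparison after IRI had 7, 14 with no filter on low counts, 0 with the control groups alone, and 4 to 8 without 1 library. IRI against sham surgery in PMNs had 3, 8 with no filter, 6 with at least 10 counts in every library, 7 by the Wald test of DESeq2, 1 with the block, 0 with the control groups alone, and 1 to 7 without 1 library. In TECs it had 5, 8 by the Wald test, 0 with the control groups alone, and 0 to 7 without 1 library. The interaction had 0, 3 with no filter, 3 with at least 10 counts, 5 by the Wald test, 1 without the pair of TEC libraries that stood apart, and 0 to 1 without 1 library. RIPC against control had 0 in each of 4 comparisons, 0 without any 1 library, and 1 by apeglm in PMNs after sham surgery. Without 1 library, 1 to 4 shares passed between PMNs and TECs and 0 within a cell type. Within a cell type, leaving out a library raises the smallest p that the exact test allows, so this 0 says little about stability. Pkm kept its call between PMNs and TECs after sham surgery in every alternative, and Slc16a3 in PMNs after IRI in all but the control groups alone, where 2 libraries stood against 2. Within a cell type, same-numbered libraries of different groups correlated by -0.0214 to 0.0219 in PMNs and -0.0854 to 0.105 in TECs, as deviations from group means. Whether a PMN and a TEC library came from the same animal was not tested. Tests between cell types treated all libraries as independent. Adding reads of genes that each share at least 1% of a gene's 50-base stretches left each count within 1.5 times. Over all genes tested, IRI against sham surgery in PMNs had 91 higher and 13 lower of 25002, and 16 and 7 with the block. It had 625 and 346 of 38823 with no filter, and 314 and 130 of 6739 with at least 10 counts. By the Wald test it had 1195 and 760 of 17043. The interaction had 406 and 316 of 43622 with no filter, and 106 and 17 of 4319 with at least 10 counts. By the Wald test it had 1412 and 983 of 21409. The cause of these shifts was not tested.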
